A study of Homo sapiens with 2 samples.

Results

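The deposited list of accessible chromatin in GM12878 contains 161 dense clusters, stretches in which 5 or more accessible regions follow each other with gaps of at most 12.5 kb. They were found by sorting all regions on chromosomes 1 to 22 by start, joining neighbours whose next start minus previous end was at most 12.5 kb, and keeping groups of at least 5. The clusters hold 938 regions, out of 22668 on these chromosomes and 23612 in the whole list, so 4.14% of autosomal regions are members. Members were thus chosen by the positions of regions in the same list, and cluster number, size, span and gaps are therefore descriptions of the choice and were not tested.

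GM12878 is an EBV-transformed B lymphoblastoid line, that is, human B lymphocytes made to grow indefinitely by Epstein-Barr virus. ATAC-seq was run on 2 untreated cultures of this line, with 50000 cells in each, harvested in exponential growth. In this assay a transposase inserts sequencing adapters into DNA that is not packed in nucleosomes. Both cultures form 1 group and share 1 list of regions in hg19, with a start, an end and a score for each region. Since the list gives no counts and no values per culture, the depth is unknown, replicate error could not be estimated, and no test between samples was possible. The line comes from a single donor, and accessibility in it need not be that of resting B cells. Expression was not measured here, so the cell type was not checked against its markers.

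Accessible regions are mostly promoters, enhancers and sites bound by insulator proteins. Several enhancers near each other often serve 1 gene, and joining elements up to 12.5 kb apart is the convention by which super-enhancers are assembled from histone or cofactor marks. In lymphoblastoid lines, the nuclear proteins of Epstein-Barr virus and subunits of NF-kB are known to bind many such stretches. No histone mark or factor was measured here, so the clusters below are described only as runs of accessible regions.

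Names of loci are background and not measurements. TMSB10, MCOLN2, SLC15A4, STK24 and VOPP1 came with the definition of the clusters. The others come from general knowledge of the hg19 map, because the RefSeq table used is on GRCh38.p14 and its coordinates cannot be set against hg19. Which part of a gene (promoter, exon, intron or UTR) a region covers was therefore not read. As a check that needs no conversion, the order of the names along each chromosome was compared with the order of the clusters. All 40 names given to clusters were in the table on the expected chromosome, and 63 of 63 pairs of named clusters on 1 chromosome stood in the same order. Names chosen from knowledge of the map could hardly fail this, and it cannot tell a gene from its neighbours. A name therefore marks a locus and does not show that every region of the cluster belongs to that gene. Genes mentioned only as neighbours or as known in a band, such as RGS1 and RGS13 in 1q31.2, were not part of this check.

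The promoters of 4 of the 5 loci that came with the definition are shown from RefSeq, matched by symbol, because these genes are the reference points of the clusters. Each is the 250 bases before the outermost gene start in the table, 5′ to 3′ on the gene's strand, in GRCh38.p14. The positions are chr2:84905406-84905655 (plus strand) for TMSB10, chr12:128823959-128824208 (minus) for SLC15A4, chr13:98577108-98577357 (minus) for STK24 and chr7:55572503-55572752 (minus) for VOPP1. They are on another build than the clusters. Capitals mark matches, on either strand, to the GC box GGGCGG, the CCAAT box CCAAT, the ETS core CCGGAAG and the TATA box TATAAA.
TMSB10: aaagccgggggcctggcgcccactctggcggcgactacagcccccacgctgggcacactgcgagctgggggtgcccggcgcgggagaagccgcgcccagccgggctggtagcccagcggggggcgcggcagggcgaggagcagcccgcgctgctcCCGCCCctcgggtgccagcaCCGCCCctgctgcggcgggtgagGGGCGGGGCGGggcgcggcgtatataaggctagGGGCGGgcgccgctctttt
SLC15A4: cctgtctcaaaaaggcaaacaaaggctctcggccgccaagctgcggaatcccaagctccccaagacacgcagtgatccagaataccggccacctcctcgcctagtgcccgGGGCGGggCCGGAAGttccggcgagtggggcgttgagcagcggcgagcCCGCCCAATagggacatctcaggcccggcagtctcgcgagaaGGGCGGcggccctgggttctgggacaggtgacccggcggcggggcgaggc
STK24: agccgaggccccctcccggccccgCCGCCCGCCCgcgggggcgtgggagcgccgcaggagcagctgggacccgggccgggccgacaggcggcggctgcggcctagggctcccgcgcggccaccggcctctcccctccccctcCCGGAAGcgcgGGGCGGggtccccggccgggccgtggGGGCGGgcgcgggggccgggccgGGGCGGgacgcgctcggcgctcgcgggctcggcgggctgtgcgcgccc
VOPP1: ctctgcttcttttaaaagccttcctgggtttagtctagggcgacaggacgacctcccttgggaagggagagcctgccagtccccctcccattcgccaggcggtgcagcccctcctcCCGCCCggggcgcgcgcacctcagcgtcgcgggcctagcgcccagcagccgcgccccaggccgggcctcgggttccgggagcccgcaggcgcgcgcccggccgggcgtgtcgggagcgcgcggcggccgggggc
The GC box, the site of Sp1-like factors, occurs 5 times in the TMSB10 sequence, 3 times in SLC15A4, 5 times in STK24 and 1 time in VOPP1. It is present in 42.6% of the 35116 promoters of the table. An ETS core is present in SLC15A4 and STK24 (8.52% of all promoters), and a CCAAT box in SLC15A4 (32.0%). None of the 4 holds TATAAA, which 10.7% of all promoters do. Only this exact string was sought, so variants of the TATA box were not counted. The tatataag close to the gene start in TMSB10 is such a variant and is left unmarked. In TMSB10, SLC15A4 and STK24, 1 pair of matches overlaps in each. GC content was 78% in TMSB10, 68.4% in SLC15A4, 87.6% in STK24 and 75.2% in VOPP1, against a median of 58% over all promoters. CpG dinucleotides numbered 31, 24, 43 and 31, against a median of 11. These are descriptions of reference sequence, and no accessible region was assigned to them.

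The largest cluster lies in band 2p11.2 at the locus of TMSB10, which encodes thymosin beta 10, a small protein that binds actin monomers. It holds 14 regions over 67.5 kb (chromosome 2, 85106552 to 85174082), and they cover 20.4% of the span. From the lowest position up, the regions are 482, 798, 920, 1113, 1564, 723, 1318, 539, 785, 632, 682, 2445, 685 and 1083 bp wide. The widest is thus the twelfth region (85165256 to 85167700), close to the far end and not in the middle of the run. The score of a region is a whole number from 541 to a cap of 1000 given by the authors on a scale that no header names, and 10 of the 14 regions were at the cap. The 4 others had 832, 703, 675 and 582. The largest empty stretch was 11.5 kb, between the sixth and the seventh region. In the RefSeq order TMSB10 stands between TRABD2A and KCMF1.

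A cluster of 12 regions lies in 3q11.2 (chromosome 3, 98240740 to 98287164), in the band known to hold GPR15, a chemoattractant receptor of lymphocytes that home to the gut. Its regions are 1822, 2263, 505, 983, 495, 903, 1604, 1229, 939, 2056, 537 and 927 bp wide and cover 30.7% of 46.4 kb. They fall into a lower run of 5 and an upper run of 7, which are separated by 11.1 kb. Of the 12, 7 were at the score cap, and the lowest scores were 549 and 550. The seventh and eighth regions are only 40 bp apart. This is the single cluster in a band of variable heterochromatin, and in RefSeq order GPR15 stands between CLDND1 and CPOX.

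At the locus of DUSP22, a dual-specificity phosphatase that dampens kinase signalling, 11 regions span 66.5 kb in 6p25.3 (chromosome 6, 291241 to 357702). Their widths are 2713, 1288, 1234, 1876, 2382, 1444, 1179, 614, 1572, 873 and 931 bp. The first region (291241 to 293953) is the widest, and the first 7 were all at the cap. The 3 below it, with 762, 855 and 584, lie among its last 4 regions. The smallest gap was 888 bp, and merging regions at most 500 bp apart would change none of them. The next protein-coding gene in RefSeq order is IRF4, which directs activated B cells to the plasma cell fate.

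In 1q31.2, the band known to hold RGS1 and RGS13, which shut off G-protein signals in B cells, 10 regions span 53.3 kb (chromosome 1, 192475820 to 192529104). They are narrow for such a large cluster, with widths of 373, 666, 376, 545, 412, 937, 711, 817, 1406 and 970 bp, and cover 13.5%. The wider ones stand at the upper end, where the last 5 regions were all at the cap. The first 5 regions included the 3 below the cap, with 548, 954 and 622.

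Each of the 3 clusters with 9 regions lies at a locus that came with the definition. At MCOLN2, which encodes a cation channel of endolysosomes, the cluster spans 38.9 kb in 1p22.3 (chromosome 1, 85424922 to 85463800). Its regions are 676, 919, 721, 764, 337, 640, 1123, 1417 and 1219 bp wide, and their scores are 666, 945, 747, 774, 711, 1000, 921, 1000 and 1000. Only 3 of 9 were at the cap, which leaves 6 below it, more than in any other of the 161 clusters. Scores and widths are both higher in the upper part, where the last 2 regions are 171 bp apart. MCOLN2 is next to MCOLN3, its paralogue, in RefSeq order, and no promoter sequence of MCOLN2 is shown.

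At SLC15A4, which carries peptides and histidine out of lysosomes and is needed for signalling by endosomal Toll-like receptors, the cluster spans 43.9 kb in 12q24.33 (chromosome 12, 129281931 to 129325873). Widths are 833, 1189, 448, 508, 1598, 1581, 1763, 1528 and 544 bp. The 4 wide regions in a row, from the fifth to the eighth, were all at the cap. The flanking regions at either end had 744 and 771, and the lowest scores were 547 and 563.

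At STK24, a kinase of the Ste20 family, the cluster covers 13.6% of 47.9 kb in 13q32.2 (chromosome 13, 99128461 to 99176387). Its widths are 765, 543, 854, 423, 583, 480, 723, 1466 and 686 bp. With 6 of 9 regions at the cap and a lowest score of 850, narrow regions here carried high scores. The eighth region (99163773 to 99165238) is the widest. No gap was under 1115 bp.

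**Figure D1:**
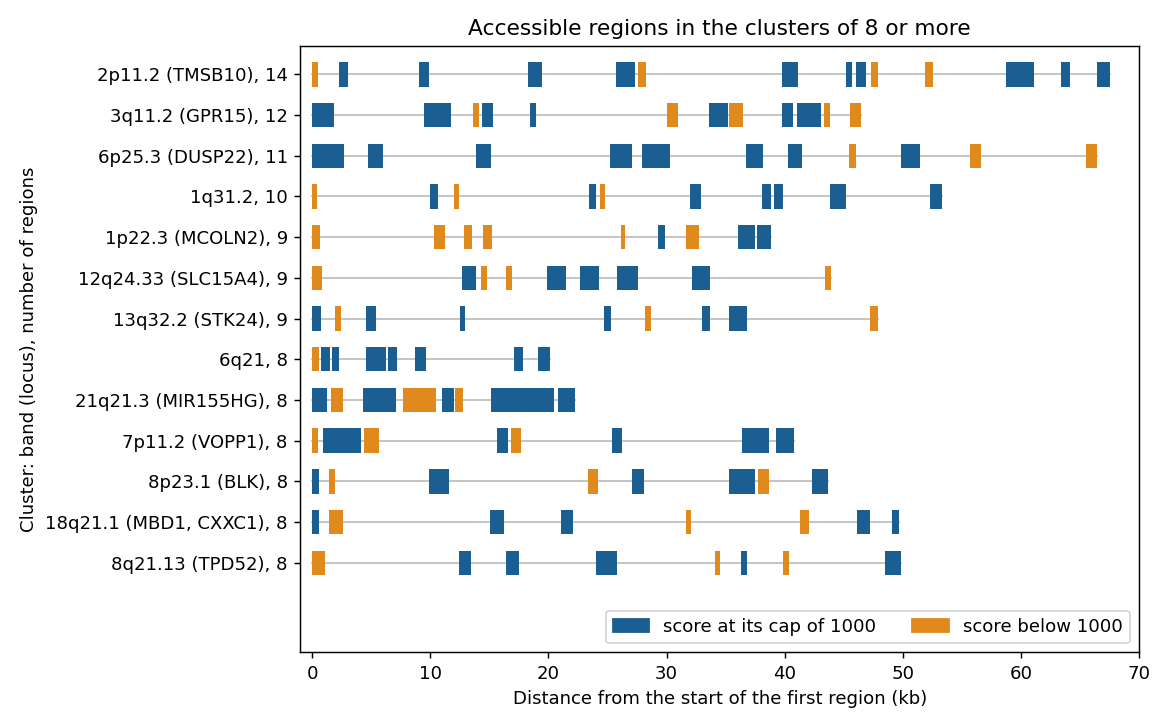
Map of the 13 clusters of 8 or more regions. The x axis is the distance in kb from the start of the first region, each row is a cluster with its band, locus and number of regions, and boxes are regions to scale, blue at the score cap of 1000 and orange below it. The cluster at MIR155HG is nearly filled over 22.3 kb, whereas those at TMSB10 and DUSP22 stretch over more than 66 kb with wide gaps.

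The 6 clusters of 8 regions differ widely in how densely they are packed. At MIR155HG, the host transcript of a microRNA induced when B cells are activated, the regions cover 72.7% of 22.3 kb in 21q21.3 (chromosome 21, 26933843 to 26956105), the highest share of all. Their widths are 1244, 960, 2763, 2743, 1022, 699, 5301 and 1452 bp, and no gap was over 2.34 kb. The 5301 bp region (26948981 to 26954281) is the widest on the autosomes. When regions at most 500 bp apart were merged first, 5 were left.

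The cluster at VOPP1, a vesicular protein overexpressed in cancers, spans 40.8 kb in 7p11.2 (chromosome 7, 55599843 to 55640668). It has 2 wide regions of 3230 and 2269 bp near its opposite ends, and the others are 490, 1290, 971, 821, 860 and 1572 bp wide. Of the 8 regions, 5 were at the cap and the lowest score was 849. Merging regions at most 500 bp apart left 5.

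In 8p23.1 (chromosome 8, 11313941 to 11357582), the band known to hold BLK, a Src-family kinase of the B cell receptor pathway, 8 regions span 43.6 kb. The widest, of 2186 bp, lies at 11349227 to 11351412. Of these regions, 5 were at the cap and the others had 793, 707 and 884. The 8 regions in 8q21.13 (chromosome 8, 81034275 to 81084091) lie at TPD52, a protein of vesicle traffic abundant in secretory cells. They cover 15.3% of 49.8 kb, and 5 of 8 were at the cap.

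The 8 regions in 18q21.1 (chromosome 18, 47792648 to 47842301) lie in the band known to hold MBD1 and CXXC1. MBD1 binds methylated CpG and CXXC1 unmethylated CpG, and the genes are neighbours in RefSeq order. The regions are 471 to 1227 bp wide and cover 13.7% of 49.7 kb. This cluster holds the longest gap joined in any cluster, 12435 bp after its second region, so it would lose its first 2 regions at any joining distance below that. The last of the 6, in 6q21 (chromosome 6, 113946843 to 113967002), packs 8 regions into 20.2 kb. There 7 of 8 were at the cap, no locus name is given, and 5 regions were left after merging.

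Over all 161 clusters, 90 had 5 regions, 40 had 6, 18 had 7 and 13 had 8 or more. The median span was 25.2 kb, with quartiles at 20.3 and 32.4 kb, and regions covered a median of 20.4% of it (quartiles 15.3% and 28.3%). Together the spans add up to 4.35 Mb, or 0.151% of the autosomes. The regions in them add up to 0.900 Mb, which is 4.49% of all autosomal accessible sequence. Groups of exactly 4 regions, just under the size limit, numbered 255, with a median span of 17.1 kb and a covered share of 20.9%. In clusters of 5 the medians were 22.6 kb and 20.3%.

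**Figure D2:**
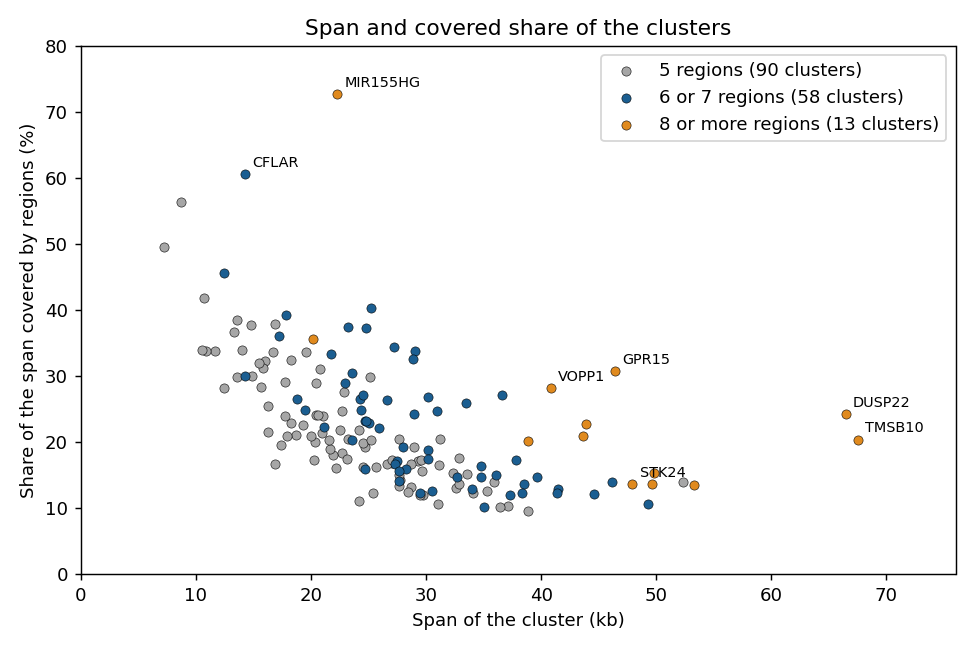
Span in kb (x axis) and share of the span covered by regions in percent (y axis) for each of the 161 clusters, 1 point each, coloured by number of regions. Short clusters are filled more, and the clusters at MIR155HG (72.7%) and CFLAR (60.6%) stand above the others of their span.

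The 3 shortest hold 5 regions each, in 10p12.2 (7.22 kb, chromosome 10, 23650921 to 23658138), 3q13.11 (8.73 kb, chromosome 3, 104237766 to 104246491) and 8q24.12 (10.6 kb, chromosome 8, 119511318 to 119521879). In 10p12.2 only 1 of 5 was at the cap, against 4 of 5 in each of the others. The 3 longest, in 2p11.2, 6p25.3 and 1q31.2, hold 14, 11 and 10 regions.

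At CFLAR, which encodes the caspase-8 inhibitor c-FLIP and protects lymphocytes from death receptor signals, 7 regions cover 60.6% of 14.3 kb in 2q33.1 (chromosome 2, 201980470 to 201994750). Their widths are 1436, 768, 2175, 1182, 795, 1136 and 1156 bp, with 4 at the cap and none under 806. Merging regions at most 500 bp apart left 4 regions, which is below the size of a cluster. The next highest covered share was 56.4%, in the cluster of 3q13.11.

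The lowest covered shares were 9.60% in 9q21.13 (5 regions, chromosome 9, 74383265 to 74422095), 10.1% in 3q13.33 (6 regions, chromosome 3, 120482474 to 120517551) and 10.2% in 6q25.3 (5 regions, chromosome 6, 157076328 to 157112737). The last lies at ARID1B, a subunit of the BAF chromatin remodelling complex. The widest of its regions, at 1604 bp (157098011 to 157099614), was more than 3 times as wide as the cluster's median region of 428 bp.

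Within clusters, 777 gaps separated the regions, with a median of 3.42 kb and quartiles at 1.17 and 7.54 kb. Short gaps were the most common, with 174 of 777 (22.4%) under 1000 bp. At the joining limit, 11 gaps were over 12000 bp. Over all autosomal regions, 142 gaps lay between 12000 bp and the limit and 118 between the limit and 13000 bp, so gaps of either length were about equally frequent. Only 1 cluster had a further region within 13000 bp of its end.

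**Figure D3:**
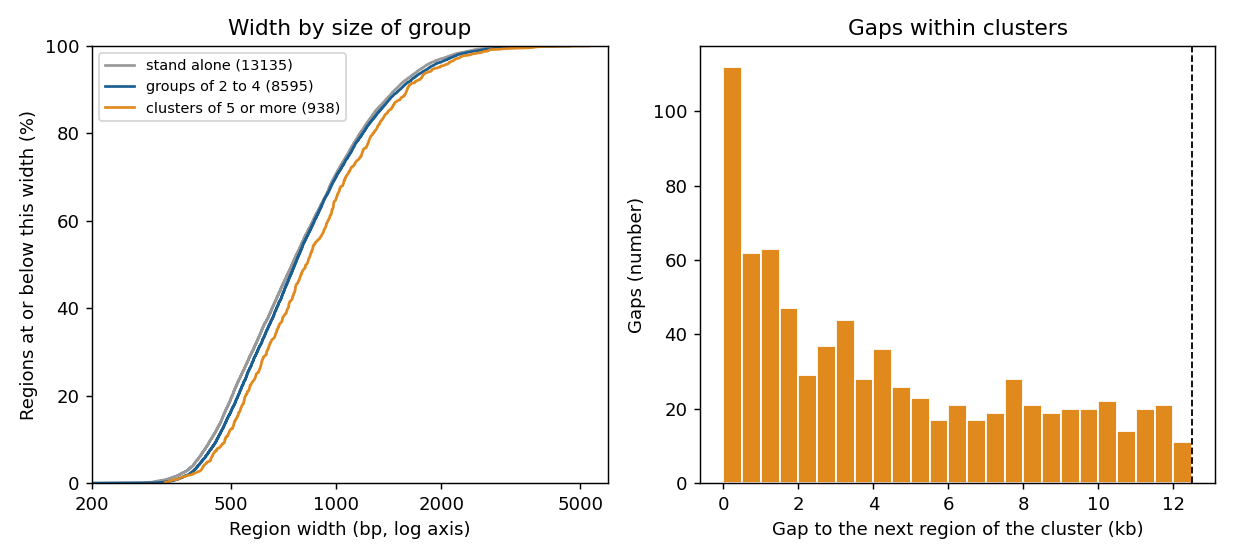
Left, cumulative share of regions in percent (y axis) against width in bp (x axis, log) for regions that stand alone, regions in groups of 2 to 4 and members of clusters. Right, number of gaps (y axis) by length in kb (x axis) within clusters, with the joining limit of 12.5 kb dashed. The curve of the clusters lies to the right of both others, and gaps pile up below 1 kb.

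Members of clusters were slightly wider than other regions. Their median width was 822.5 bp (quartiles 592 and 1182 bp), against 756 bp over all autosomal regions, 748 bp for the 13135 that stand alone and 762 bp for the 8595 in groups of 2 to 4. By size the median was 794.5 bp in groups of 4, just under the limit, 789 bp in clusters of 5, 826.5 bp with 6 or 7, and 934 bp with 8 or more. Groups of 4 thus had the width of clusters of 5. Among the 122 regions of the 13 largest clusters, 9.02% were 2 kb or wider, against 3.78% in clusters of 5, 3.92% in groups of 4 and 3.29% of all autosomal regions. Over all members it was 4.58% (43 of 938). Widths belong to the same list from which the members were chosen, and regions are not replicates, so these medians were not tested.

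Scores of members and other regions also differed slightly. This difference cannot be ranked against that in width, because most scores were at the cap. The cap was reached by 63.3% of members (594 of 938), 59.9% of all autosomal regions, 59.5% of those that stand alone and 60.2% of those in groups of 2 to 4. Below the cap the median score was 752 in clusters and 731 over all. Members were wider on both sides of the cap, with medians of 1000 bp at it and 606.5 bp below it, against 955 and 555 bp over all regions. Scores were not matched in this split. The first and last regions of clusters reached the cap in 63.0% and inner ones in 63.5%, with median widths of 785 and 842 bp.

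Regions of high and low score mixed within most clusters. Every one of the 161 held at least 1 region at the cap, 11 held exactly 1, and in 15 all regions were at the cap. Over all autosomal regions 59.9% were at the cap, so mixed groups are common at this share. The counts were not compared with those of smaller groups. The widest region of the cluster was at the cap in 147 of 161. Over all autosomal regions, those at the cap had a median width of 955 bp, against 555 bp below it. On median the widest region of a cluster made up 28.6% of the covered length, from 15.9% to 50.9%. It was the first or last region in 55 of 161 clusters, close to the 34.3% of all members that are first or last.

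In 15 clusters all regions were at the cap, and 4 of the largest of these are given here. In 6p22.2, the band known to hold replication-dependent histone genes such as H1-2, 7 regions span 36.6 kb (chromosome 6, 26020378 to 26056946), with a median width of 1419 bp. In 5q31.3, the band known to hold DIAPH1, a formin that assembles actin filaments, 7 regions cover 37.5% of 23.3 kb (chromosome 5, 140886664 to 140909917). DIAPH1 stands between PCDHGC5 and HDAC3 in RefSeq order, and which gene the regions cover was not read. The other 2 hold 6 regions each, in 5p12 (chromosome 5, 42991681 to 43020766) and 8q12.2 (chromosome 8, 61815745 to 61842396), and carry no locus name here. The cluster in 5p12 had the highest median width of all, 1717.5 bp.

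By number of regions below the cap, MCOLN2 came first with 6, followed by 3q11.2, PLCG2 and IL5RA with 5 each. This order favours large clusters, since 3q11.2 had 7 of 12 regions at the cap and a median score of 1000. The 11 clusters with a single region at the cap, PLCG2 and IL5RA among them, had a smaller share at the cap than MCOLN2. At PLCG2, the phospholipase downstream of the B cell receptor, only the third of 6 regions was at the cap in 16q23.3 (chromosome 16, 81831009 to 81865757), and the others had 608, 644, 575, 803 and 851. At IL5RA, which encodes the interleukin 5 receptor alpha chain, 1 of 6 regions was at the cap in 3p26.2 (chromosome 3, 3123557 to 3153005), and the median score was 708.5.

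Several clusters stood next to each other. Within 100 kb there were 8 pairs of neighbouring clusters, made of 15 clusters. In 5q33.1, 3 of them follow each other at TNIP1, ANXA6 and CCDC69, which are consecutive genes in RefSeq order, with 5, 7 and 7 regions and distances of 24.8 and 45.8 kb. TNIP1 restrains NF-kB signalling and ANXA6 encodes an annexin. In each of these clusters 3 regions were at the cap. At TPD52 a second cluster of 6 lies 18.2 kb before the cluster of 8, and at BLK a second cluster of 6 lies 30.7 kb after the first. The 2 clusters named for each locus thus hold 14 regions, as many as the single cluster at TMSB10. FAM167A comes just before BLK in RefSeq order, and which of these genes the regions in 8p23.1 cover was not read. CELF2, an RNA-binding splicing regulator in 10p14, has 7 and 6 regions 45.2 kb apart, and 10 of these 13 were at the cap. At PVT1, the long non-coding RNA next to MYC, 5 and 5 regions lie 51.2 kb apart and only 3 of 10 were at the cap. Clusters in 5q31.3 named for DIAPH1 and HDAC3 (75.2 kb) and the 2 clusters in 11p13, the second at CD44 (28.8 kb), complete the pairs. Those genes of 5q31.3 are neighbours in RefSeq order, and which of them each cluster covers was not read.

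Other loci were picked after their values were seen, for what the genes do, and show no theme among the clusters. Of the factors that direct B cell fate, PRDM1, which drives plasma cell differentiation, holds 6 regions in 6q21 (chromosome 6, 106532218 to 106562771), with 5 at the cap and a widest region of only 777 bp. IKZF1, the Ikaros factor, has 6 regions over 38.5 kb in 7p12.2, with 3 at the cap. MEF2C in 5q14.3 has 5 regions with 3 at the cap, and MSC, a repressor known from activated B cells, has 7 in 8q13.3, of which the sixth is 3688 bp wide. AKNA in 9q32, which is not counted here as a factor of B cell fate, has 7 regions, with 4 at the cap.

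Signalling and survival genes were also among the loci. BCL2, the inhibitor of apoptosis, has 6 regions in 18q21.33 that cover 37.3% of 24.8 kb, and the last is 3963 bp wide. RASGRP3, which activates Ras in B cells, has 7 regions in 2p22.3 with 5 at the cap. PTPN6, the phosphatase SHP-1, has 5 in 12p13.31 with 4 at the cap. A sparse cluster of 6 over 49.3 kb lies in 3q12.3, the band known to hold NFKBIZ, an atypical inhibitor of NF-kB. Its last region is the widest at 1443 bp. NXPE3 comes just before NFKBIZ in RefSeq order, and which of these genes the regions cover was not read. PTK2B in 8p21.2 has 6 regions with 4 at the cap, and ARHGDIB in 12p12.3 has 5 with 4 at the cap. Genes active in nearly all cells also had clusters, with 7 regions at ACTB (beta-actin) in 7p22.1, the second of them 2630 bp wide, and 5 at B2M, the light chain of HLA class I, in 15q21.1. The last 2 covered 32.7% and 33.7% of their spans.

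Clusters were spread unevenly over the autosomes. Chromosome 8 had 22, chromosome 5 had 20 and chromosome 2 had 19, together 61 of the 161. Chromosomes 17, 19, 20 and 22 had none, although they hold 1606 regions or 7.08% of the total. Chromosomes 8, 5 and 2 hold 1347, 1652 and 2127 of the 22668 autosomal regions, and chromosome 2 has the most of any autosome. Members made up 9.35% of regions on chromosome 8, 6.96% on chromosome 5 and 5.27% on chromosome 2, against 4.14% over all autosomes. The share on chromosome 2 was below the 5.67% of chromosome 18, which had 5 clusters, and the 5.46% of chromosome 6, which had 14.

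Chromosome 19 was nearly as dense in regions as chromosome 8, with 8.85 against 9.20 regions per Mb, yet its largest group held 4 regions. The median gap between its regions was 50.9 kb, against 36.8 kb on chromosome 8. Of its gaps, 15.5% were within the joining distance and 2.87% within 2 kb, against 30.2% and 9.96% on chromosome 8. Regions on chromosome 19 were also wider, with a median of 839 bp against 725 bp, and 62.1% against 58.9% were at the cap. Chromosome 19 was not typical of those without a cluster. Chromosomes 17, 20 and 22 had 6.21, 6.78 and 2.96 regions per Mb, with 50.8%, 55.5% and 50.7% of regions at the cap. The absence of clusters depended on the joining distance. At 25 kb chromosome 19 had 9 clusters, chromosome 20 had 6 and chromosome 17 had 1, and chromosome 22 still had none.

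**Figure D4:**
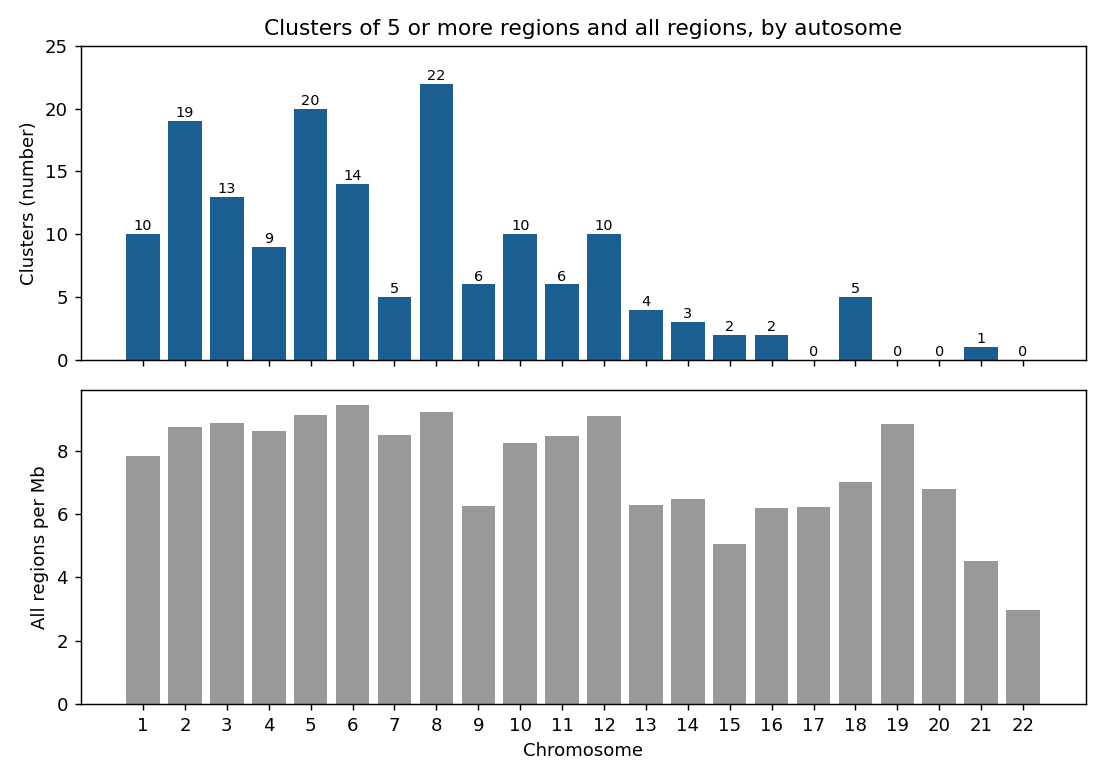
Number of clusters of 5 or more regions (upper bars) and density of all regions per Mb (lower bars) for each autosome (x axis). Chromosome 8 has most clusters, with 22, whereas chromosome 19 has none at 8.85 regions per Mb.

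By Giemsa stain, 60.3% of members lay in light bands, where 53.9% of all autosomal regions lie. The darkest bands held 9.91% of members and 12.6% of all regions, and the palest dark class 4.37% and 7.59%. The 2 intermediate classes held 12.0% of members each, against 12.6% and 12.5% of all. No region number was skipped within any cluster, and in centromeric bands there were 0 members among 108 regions. Since 4.14% of all autosomal regions were members, 108 regions are too few to read anything from this.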

How the data were processed

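Per the labels, 2 cultures of GM12878 were assayed by ATAC-seq. The submitters' processing notes give the build as hg19 and list MACS2 2.1.0, bedtools 2.24.0, BWA 0.7.13 and Trim Galore 0.3.3, with CASAVA 1.8.4, SAMtools 0.1.19 and Picard 1.92, but not what each did. The authors deposited 1 list of regions with a score for each. No header or label states the scale of the score, but its values have the form of a scaled irreproducible discovery rate with a cap of 1000, and it was used only to describe regions within the list. The name of the list includes idr and terms that read as filters for mappability, mitochondrial and blacklisted sequence. What such filters removed is not known, so gaps may include filtered stretches. How the list splits open chromatin into regions sets the number of members.

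Regions were joined and summarised with Python 3.11.15, numpy 2.4.6 and pandas 2.3.3, and plots used matplotlib 3.10.9. Joining was tested on simulated data. Bands and lengths of hg19 came from circlize 0.4.16. Starts are 1-based. No test between groups was run. Clusters were named by a rule: 8 or more regions, the 5 loci that came with the definition, and the extremes of span, covered share and score, 27 in all, of which 1 is not reported here. The members, lists and names were chosen with earlier results of these data known. The gene overlaps and the B lineage list that were planned need an annotation of hg19 and were not run. Intervals in the closing section are 95% binomial ones, exact for a share and by order statistics for a median, computed with scipy 1.17.1.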

Additional observations from a re-analysis of the deposited data

Results flagged for a closer look

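Outside the autosomes, chromosome X held 2 clusters of 5 or more regions, singled out as signal in a part of the list that the description does not use. They have 6 regions over 28.9 kb in Xq26.1 (chromosome X, 128891963 to 128920870), 5 of them at the score cap, and 5 regions over 18.4 kb in Xq26.2 (chromosome X, 130946944 to 130965369), 2 of them at the cap. On sequences not placed on a chromosome, or on alternative haplotypes, 8 clusters held 122 of the 167 regions listed there. They lay on 7 of the 19 such sequences with a region, and the largest held 43 regions. There are no control samples to set these against.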

How the results depend on the processing

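Of 55 alternatives over 6 results, 29 left the value within its limits and 26 moved it. Several alternatives share most members with the main setting, so this tally does not measure how stable the results are. Adding chromosome X, for example, gave 163 clusters with 949 regions, against 161 with 938, and left every result within its limits. The limits were 1.5 times for a count and the 95% interval for a median or share, which was 786 to 853 bp for width, 24.3 to 27.7 kb for span, 18.8% to 22.5% for covered share and 60.2% to 66.4% for the share at the score cap. These intervals treat regions or clusters as independent, which they are not. Joining at 5000 bp gave 34 clusters with 188 regions, a median width of 905.5 bp, a span of 14.3 kb and a covered share of 36.8%. At 10000 bp there were 625 regions, with a span of 20.6 kb and 26.1% covered. At 15000 bp the span was 29.0 kb and the covered share 17.2%, and at 25000 bp 459 clusters held 2878 regions, with 47.4 kb and 11.6%. Groups of 4 or more numbered 416, with 1958 regions and a median span of 20.1 kb, and those of 6 or more numbered 71, with 488 regions and 29.1 kb. Counts and spans follow from the construction of these settings, and the cause of the change in width was not tested. Regions at the score cap alone gave 36 clusters with 200 regions, 1015.5 bp wide and covering 23.5%. With each cluster counted once, the median share at the cap was 60%. Merging regions at most 500 bp apart, chosen after seeing the data, gave 117 clusters and moved the median span to 27.7 kb. Gene starts in place of gene bodies were not tried, since no annotation of hg19 was used here. No paired analysis was possible because both cultures share a single list, and leaving out a culture was not possible for the same reason. Depth is unknown, so a stretch between regions cannot be called closed.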

Other observations

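Some regions within the clusters nearly touch. Of the 777 gaps, 112 (14.4%) were 500 bp or less and 15 were under 100 bp. The same shares were not computed for joined gaps outside the clusters, so whether this is particular to clusters is not known. After regions at most 500 bp apart were merged, 117 of the 161 clusters kept 5 or more regions and 44 fell below. The clusters at DUSP22, STK24, TPD52 (the larger one) and MBD1 and CXXC1 kept all of their 11, 9, 8 and 8 regions. That at TMSB10 went from 14 to 11 and that at GPR15 from 12 to 8, so the clusters at TMSB10 and DUSP22 were then equal in size. The merging distance was chosen after the gaps were seen.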
